A study of Arabidopsis thaliana with 6 samples.

Results

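The transposable element (TE) genes on the arms of the 5 Arabidopsis thaliana chromosomes are 540 loci of a table of 32594. They were chosen by annotation and position. A locus was a member if its short description in the table was transposable element gene and its start lay outside 11.5 to 17.7 Mb of chromosome 1, 1.1 to 7.2 Mb of chromosome 2, 10.3 to 17.3 Mb of chromosome 3, 1.5 to 6.3 Mb of chromosome 4 and 9.0 to 16.0 Mb of chromosome 5 (TAIR10). Of the 3855 loci with that description, 5 that were assembled antisense to a gene were dropped, none of them on an arm, and 3310 lay near centromeres. Chromosome 1 held 157 of the members, chromosome 2 held 90, chromosome 3 held 96, chromosome 4 held 95 and chromosome 5 held 102. RNA came from whole, untreated seedlings aged 14 days in 3 genotypes with 2 libraries each: the wild type Col-0, apc8-1 and nrpe1-12. The apc8-1 line is mutant in APC8, which encodes part of the anaphase promoting complex, a ubiquitin ligase that marks proteins for degradation. The nrpe1-12 line is mutant in NRPE1, the gene for the catalytic subunit that defines RNA polymerase V. No lesion is given for either allele. Nor do the labels say whether the duplicates were grown separately, and the p-values reflect the spread between these libraries, which may be technical.

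Plants keep most transposable elements silent by DNA methylation and repressive histone marks. Near centromeres, where elements lie in long blocks of heterochromatin, methylation is kept up mainly by the chromatin remodeller DDM1 and the methyltransferases MET1, CMT2 and CMT3. Elements on the arms are mostly short and lie next to genes, and many are methylated through RNA-directed DNA methylation (RdDM), in which transcripts of RNA polymerase V guide ARGONAUTE proteins with small RNAs and the methyltransferase DRM2 to a locus. Some genes annotated as transposable elements are domesticated: they descend from a transposase but serve the plant and are expressed like other genes.

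The table gives FPKM, a count of fragments scaled by transcript length and library size. Low values came in whole steps, from which 1 FPKM was estimated to stand for 14.0 to 19.2 fragments per kilobase, depending on the library. Fragments of near-identical element copies cannot be separated in this table, and the sources do not say whether counting used strand. In bulk tissue, fewer cells of a type and less RNA per cell cannot be told apart. Tissue markers moved with genotype: the summed level of 5 root markers was 17.0 and 17.6 FPKM for Col-0, 0.753 and 0.618 for apc8-1 and 4.46 and 5.98 for nrpe1-12, and 3 of the 3 tested were called lower in each mutant. NRT2.1 made up most of the root sum in Col-0 (9.61 and 10.3 FPKM) and nrpe1-12 (3.63 and 5.13). Between the mutants NRT2.1 was called (log2 difference -2.13 in apc8-1 against nrpe1-12), and EXPA18 (-0.06) and PRP3 (-0.24) were not. The 3 shoot markers were called higher in each mutant (summed 19400 to 19800 FPKM in Col-0, 25600 to 27300 in apc8-1 and 27100 to 29000 in nrpe1-12). The summed level of 4 flower markers was 0.349 to 0.6 FPKM in Col-0 and 1.34 to 2.70 in the mutants, with PI, the single flower marker tested, called higher in each. PI made up most of the sum in apc8-1 (1.29 and 1.76 FPKM), where AP1 and AP3 were listed at 0. Seed markers (3 genes) summed to 1.46 and 1.91 FPKM in apc8-1 and to 0 to 0.3 elsewhere, and pollen markers (3 genes) to 0.0614 to 0.361 in all libraries. The part of these marker differences in the results below was not tested.

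Most arm TE genes had little or no transcript. Of the 540 members, 238 (44.1%) were listed at 0 in all 6 libraries, 89 were above 0 in 1 library, 142 in 2 to 5 libraries and 71 (13.1%) in all 6. Among TE genes near centromeres 50.5% were at 0 throughout and 3.23% were above 0 in all 6 libraries, and over all loci of the table these shares were 22.5% and 60.3%. The summed level of the arm members was 188.9 and 204.3 FPKM for Col-0, 202.0 and 216.8 for apc8-1 and 213.2 and 208.2 for nrpe1-12, so the ranges of Col-0 and apc8-1 overlapped. Both nrpe1-12 sums stood above those of Col-0 and within the range of apc8-1. In each library its 3 highest members carried 40.9 to 46.0% of that sum. They were picked in each library by itself and were not the same genes throughout. In apc8-1 replicate 1 they included AT1G20390 (11.2 FPKM), which is described below. Their sums were 86.52 and 83.51 FPKM for Col-0, 86.23 and 90.74 for apc8-1 and 98.15 and 90.78 for nrpe1-12, so these are not levels of a fixed set.

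**Figure D1:**
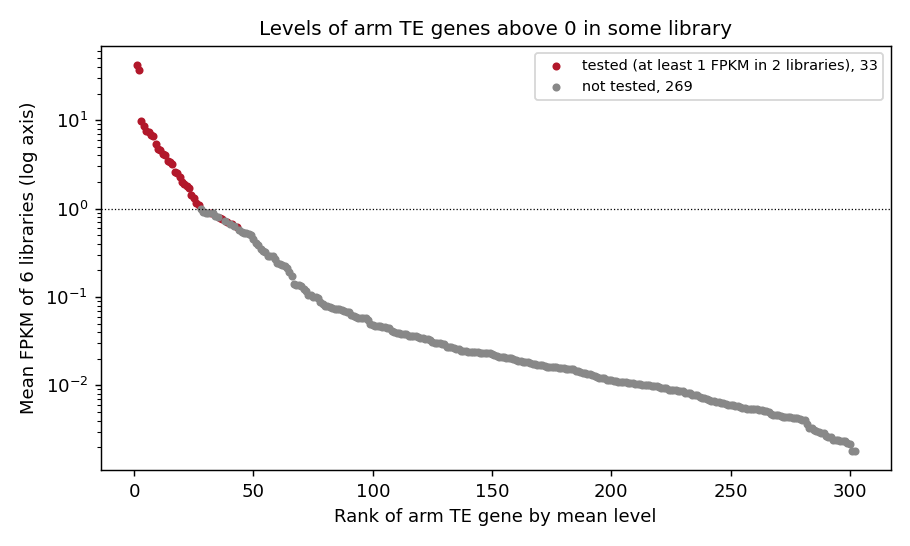
Arm TE genes above 0 in some library, ranked on the x axis by their mean FPKM over 6 libraries (y axis, log scale); red points are the 33 tested members and grey points the 269 that were not tested. Only 2 members stand above 10 FPKM, and most lie far below the dotted line at 1 FPKM.

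The number of members above 0 differed most in the library apc8-1 replicate 2. It was 132 and 144 for Col-0, 152 and 201 for apc8-1 and 159 and 155 for nrpe1-12. Near centromeres apc8-1 replicate 2 also stood apart, with 28.2% of TE genes above 0 against 11.7 to 17.6% in the other 5 libraries. The added detections were low: 117 members had an estimated 1 to 3 fragments in that library, against 60 to 89 in the other libraries. The number at or above 1 FPKM was 31 in apc8-1 replicate 2 and 27 to 33 elsewhere. Counts of detected members are therefore given here as levels by library, and no difference between genotypes is drawn from them.

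**Figure D2:**
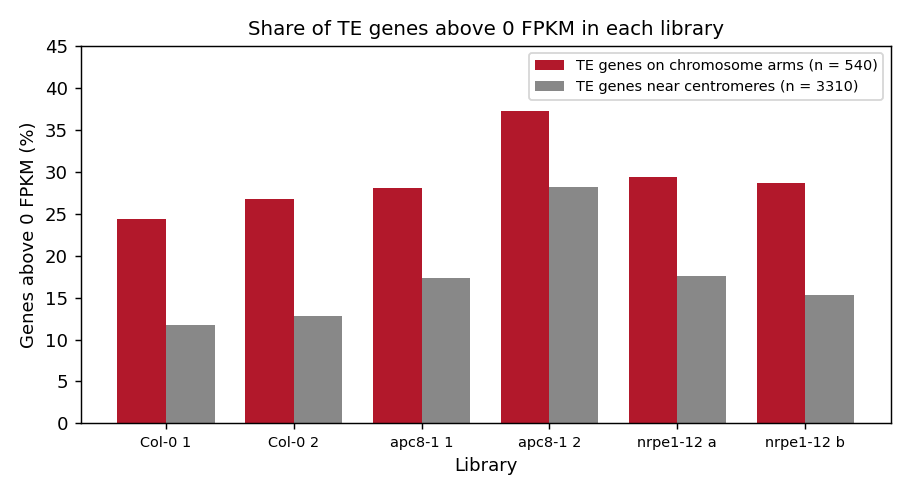
Share of TE genes above 0 FPKM (y axis, percent) in each of the 6 libraries (x axis), for the 540 genes on arms (red) and the 3310 near centromeres (grey). The bar of apc8-1 replicate 2 is the tallest of each set, at 37.2% on arms and 28.2% near centromeres.

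A total of 33 members (6.11%) reached 1 FPKM in at least 2 libraries and were tested, against 1.69% of TE genes near centromeres and 54.6% of all loci. Of these, 24 reached 1 FPKM in all 6 libraries. Another 3 passed through 1 genotype alone: SADHU5-1 through Col-0, AT2G26630 through apc8-1 and AT4G01975 through nrpe1-12, so for each the other genotypes tended to be lower by the choice itself. The mean level of the tested members ran from 0.628 to 42.0 FPKM with a median of 2.63, while that of all tested loci was 8.15. Tested members had a median length of 2214 bases and a median distance of 5.21 Mb from the nearest boundary of the centromere region. The 269 untested members with some transcript had medians of 2898 bases and 2.79 Mb, and the 238 at 0 throughout had 854 bases and 2.48 Mb. A shorter gene collects fewer fragments at the same level, and the part of length in these shares was not tested. The interval of the assembled locus overlapped another locus of the table for 11 of the 33 tested members, for 27 of the 269 untested ones with transcript and for 6 of the 238 at 0.

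Most of the names that the table and RefSeq attach to 16 members point to a few kinds of element. The symbols EXT11 (AT5G49080) and MEE19 (AT2G34130) name no kind of element, and neither gene was tested. The largest kind is Sadhu, a family of noncoding retroelements of Arabidopsis, with 7 members on the arms, of which 5 were tested. Sadhu4-2 (AT1G03420, chromosome 1, 846664 to 847739) was the most abundant arm TE gene, with 41.0 and 39.1 FPKM for Col-0, 38.2 and 41.9 for apc8-1 and 48.8 and 42.8 for nrpe1-12. SADHU1-2 (AT1G30835, chromosome 1, 10966907 to 10968851) followed with 37.1 and 35.0 FPKM for Col-0, 36.8 and 37.9 for apc8-1 and 38.9 and 37.0 for nrpe1-12. The libraries of Col-0 and apc8-1 overlapped for both genes, and those of nrpe1-12 stood above the rest for Sadhu4-2, but neither gene passed the test in any comparison. The Sadhu4-2 locus shares its interval with 2A6 (AT1G03410) on the other strand, which had 2.34 to 3.12 FPKM.

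The other Sadhu members were far lower. SADHU6-1 (AT3G02515) had 1.74 and 2.75 FPKM for Col-0, 1.51 and 1.49 for apc8-1 and 3.25 and 2.94 for nrpe1-12. SADHU10-1 (AT3G58865) lay between 0.828 and 2.04 FPKM with all groups overlapping. SADHU5-1 (AT4G01525) had 1.42 and 1.16 FPKM for Col-0, 0.753 and 0.278 for apc8-1 and 0.0898 and 0.325 for nrpe1-12, so the Col-0 libraries stood above the other 4, and those of the mutants overlapped. SADHU8-1 had 0.158 FPKM, an estimated 2 fragments, in Col-0 replicate 1 and was listed at 0 in the other libraries, and SADHU7-1 was listed at 0 in all 6. In the tests, 1 of the 5 Sadhu genes was called in nrpe1-12 against Col-0, 1 in apc8-1 against nrpe1-12 and 0 in apc8-1 against Col-0, where 1 had an unadjusted p under 0.05 (limma). Over all tested loci 26.3%, 18.7% and 30.2% were called in these 3 comparisons.

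The MUSTANG genes are domesticated relatives of Mutator-like transposases, and 5 of them lie among the members. MUG7 (AT3G05850, chromosome 3, 1743413 to 1746785), the member that RefSeq lists as protein coding while it lists the other 539 as pseudogenes, had 8.40 and 9.44 FPKM for Col-0, 9.32 and 10.96 for apc8-1 and 10.47 and 11.04 for nrpe1-12. MUG5, MUG1 and MUG6 had 3.24 to 5.32 FPKM across all 6 libraries without a genotype standing clear of both others. MUG2 had 0.461 to 0.983 FPKM and was not tested. None of the 4 tested MUSTANG genes was called in any of the 3 comparisons, and 0 had an unadjusted p under 0.05 (limma). CYTOSLEEPER (AT1G15300) had 1.52 and 1.73 FPKM for Col-0, 1.41 and 1.65 for apc8-1 and 2.17 and 2.29 for nrpe1-12, where both libraries stood above the other 4, yet it did not pass either (log2 fold change 0.30 in nrpe1-12 against Col-0, SE 0.14, adjusted p = 0.167 by limma). RE2 (AT4G02960), named retro element 2 in RefSeq, stayed at or under 0.119 FPKM.

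Another 6 of the 10 members with the highest mean level carry no name. AT2G24760 had 7.30 to 9.42 FPKM, AT1G58561 had 6.004 to 8.97, AT5G44255 had 5.65 to 9.30, AT1G21260 had 5.75 to 7.55, AT5G04235 had 5.06 to 5.76 and AT3G14800 had 3.12 to 5.31. None of these was called. AT1G58561 had the largest uncalled difference between apc8-1 and nrpe1-12 (log2 -0.41, adjusted p = 0.0812 by limma; 0.0499 without Col-0 replicate 1). AT1G58561 shares its interval with AT1G58602, an NB-ARC and LRR disease resistance gene on the same strand at 37.7 to 63.7 FPKM. AT1G58602 was called in all 3 comparisons, with log2 changes of -0.36 in apc8-1 and 0.27 in nrpe1-12 against Col-0 and -0.63 between the mutants (adjusted p = 0.00698, 0.0283 and 0.000879 by limma). Those of AT1G58561 were -0.14, 0.27 and -0.41, and the part of the shared interval in them was not tested. AT2G24760 shares its interval with AT2G24755, a noncoding RNA gene on the other strand at 3.45 to 5.72 FPKM, and fragments of the pair cannot be told apart without strand. The 10 tested members named nowhere else here lay between 0.700 and 3.81 FPKM, and none was called. Among these 10, AT5G20880, at 2.37 to 3.79 FPKM, came nearest in apc8-1 against Col-0 (log2 fold change -0.36, adjusted p = 0.0826 by limma).

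Fold changes below are differences of log2(FPKM + 1), which understate the changes of genes at these low levels. The comparison of nrpe1-12 with Col-0 addresses what changes where RNA polymerase V is mutated. In it 3 of the 33 tested members rose and 2 fell (15.2% called), while 26.3% of all tested loci were called, 13.5% higher and 12.8% lower. The median log2 fold change of the members was 0.07, and that of all tested loci was -0.01. At an unadjusted p under 0.05 by limma, 4 members were higher and 2 lower, and of all 17802 tested loci 3371 were higher and 3413 lower. AT4G01975, AT1G73445 and AT3G21010 rose and SADHU5-1 and AT3G15310 fell; most members, including Sadhu4-2 and SADHU1-2, were not called. Among the 56 tested TE genes near centromeres 16 rose and 2 fell, and their median log2 fold change was 0.17; the arms and these regions were not compared by a test.

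AT4G01975 (chromosome 4, 858636 to 862475, minus strand) had 0.365 and 0.273 FPKM for Col-0, 0.260 and 0.174 for apc8-1 and 1.63 and 1.49 for nrpe1-12. Both nrpe1-12 libraries stood above the other 4, which overlapped. These levels correspond to about 25 and 14 fragments for Col-0, 15 and 10 for apc8-1 and 99 and 75 for nrpe1-12. The mean rose from 0.319 ± 0.0652 in Col-0 to 1.56 ± 0.103 in nrpe1-12 (SD, n = 2; log2 fold change 0.96, SE 0.17, adjusted p = 0.00429 by limma). The assembled locus runs on to 865570 and holds a further arm TE gene on the same strand, AT4G01980 (863351 to 864259). AT4G01980 had 0.0766 and 0 FPKM for Col-0, 0.0914 and 0.180 for apc8-1 and 1.22 and 0.526 for nrpe1-12, again with both nrpe1-12 libraries highest. It did not reach the filter. In a fit without the filter its log2 fold change in nrpe1-12 against Col-0 was 0.83 and did not pass (adjusted p = 0.128 by limma). AT4G01975 passed the filter through nrpe1-12 alone, which favours an increase there. The filter cannot alter the log2 fold change of a gene, only the spread estimated for it and the adjustment. With no filter the SE was 0.06 against 0.17 with it, and the adjusted p was 0.0118 by limma. Without either nrpe1-12 library AT4G01975 fell under the filter. The 8 alternatives that gave a value all keep both of these libraries, so they do not show whether the call rests on 1 of them.

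AT3G21010 (chromosome 3, 7366210 to 7367748) had 1.27 and 1.22 FPKM for Col-0, 2.16 and 2.00 for apc8-1 and 2.25 and 2.38 for nrpe1-12. Both mutants stood above Col-0 without overlap. It rose in nrpe1-12 by 0.56 (SE 0.14, adjusted p = 0.0186 by limma) and in apc8-1 by 0.45 (SE 0.14, adjusted p = 0.0379); both comparisons use the same Col-0 libraries. The increase in nrpe1-12 was no longer called when any 1 Col-0 or nrpe1-12 library was left out (adjusted p = 0.0634 to 0.0948), and that in apc8-1 when any 1 of the 6 was left out (adjusted p = 0.0547 to 0.149). AT1G73445 (chromosome 1, 27612616 to 27613350) had 0.514 and 0.276 FPKM for Col-0, 1.22 and 0.849 for apc8-1 and 0.935 and 1.555 for nrpe1-12, an estimated 2 to 11 fragments, with both mutants above Col-0. It rose in nrpe1-12 by 0.68 (SE 0.21, adjusted p = 0.0443 by limma), a call that did not stay with Col-0 replicate 1 left out (adjusted p = 0.0877) or with replicate 2 left out (adjusted p = 0.214). Without apc8-1 replicate 1 or nrpe1-12 library b it fell under the filter. AT1G73445 passed the filter through these libraries of the mutants alone, which favours an increase over Col-0. With no filter the call in nrpe1-12 was lost (adjusted p = 0.173 by limma). In apc8-1 it did not pass (log2 fold change 0.55, adjusted p = 0.0823). It lies within the interval of AT1G73440, a calmodulin-related gene on the other strand at 4.90 to 7.84 FPKM that was called in no comparison.

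SADHU5-1 (AT4G01525, chromosome 4, 660810 to 661698) fell from 1.29 ± 0.184 FPKM in Col-0 to 0.207 ± 0.166 in nrpe1-12 (SD, n = 2; log2 fold change -0.93, SE 0.21, adjusted p = 0.0149 by limma). Its estimated fragments were 18 and 11 for Col-0, 8 and 3 for apc8-1 and 1 and 3 for nrpe1-12, so all Col-0 values stood above the rest. SADHU5-1 passed the filter through Col-0 alone, which favours a decrease in the mutants, and with no filter the call was lost (adjusted p = 0.103 by limma). It was also lost without nrpe1-12 library a (log2 fold change -0.79, adjusted p = 0.0847), and without either Col-0 library the gene fell under the filter. In apc8-1 its log2 fold change of -0.61 was the largest among members not called there (SE 0.21, adjusted p = 0.0653), and it passed without apc8-1 replicate 1 (-0.84, adjusted p = 0.043), with the replicate block (adjusted p = 0.0476) and with organelle and ribosomal RNA loci left out (-0.66, adjusted p = 0.0475). AT3G15310 (chromosome 3, 5152099 to 5153642) had 0.872 and 1.43 FPKM for Col-0, 1.04 and 0.929 for apc8-1 and 0.136 and 0.163 for nrpe1-12, or 22 and 27, 22 and 20, and 3 and 3 fragments. Both nrpe1-12 libraries stood below the other 4, which overlapped. It fell in nrpe1-12 by 0.89 in log2 units (SE 0.19, adjusted p = 0.00954 by limma) and had a log2 fold change of -0.10 in apc8-1 (adjusted p = 0.728). AT3G15310 passed the filter through Col-0 replicate 2 and apc8-1 replicate 1, which favours a lower level in nrpe1-12 against either genotype. With no filter the call against Col-0 was lost (adjusted p = 0.054 by limma). Without Col-0 replicate 2 or apc8-1 replicate 1 it fell under the filter, and without any other library the call stayed. AT5G10850 had the largest uncalled change in nrpe1-12, with 1.19 and 0.959 FPKM for Col-0, 0.283 and 1.26 for apc8-1 and 0.675 and 0.327 for nrpe1-12 (log2 fold change -0.47, adjusted p = 0.253 by limma).

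**Figure D3:**
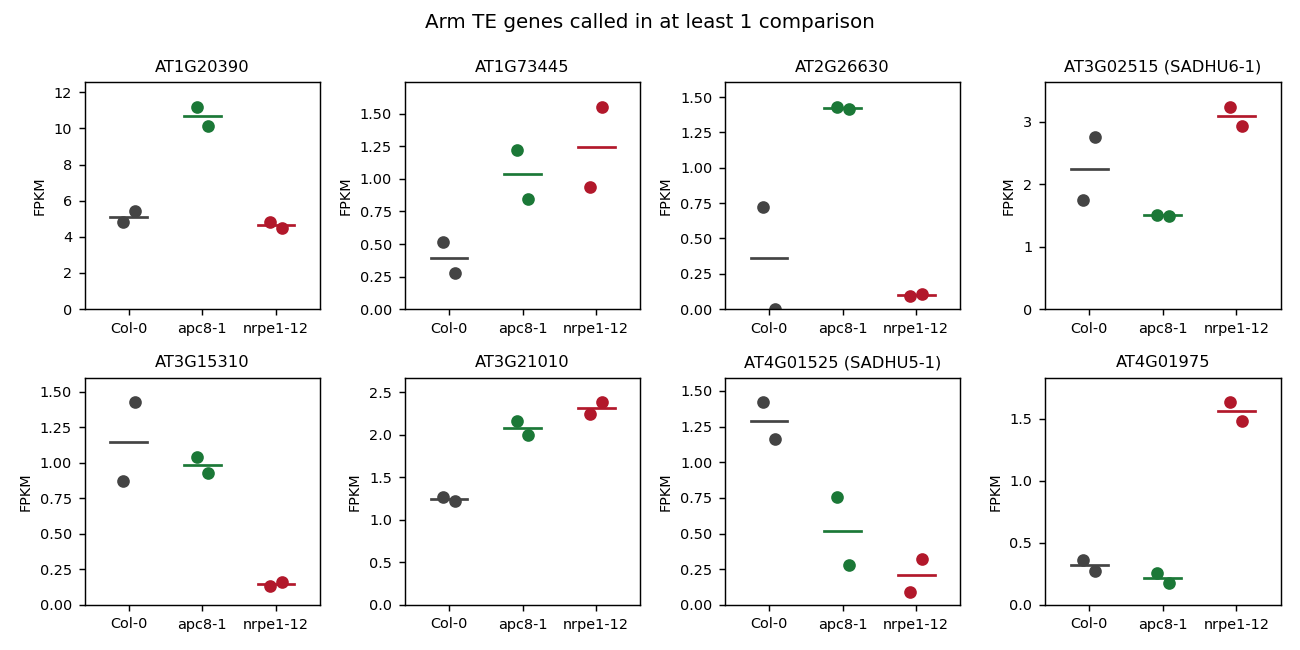
FPKM (y axes, linear from 0) of the 8 arm TE genes called in at least 1 comparison, by genotype (x axes); each point is a library and each bar the mean of 2. AT4G01975 is highest in nrpe1-12 (1.63 and 1.49), AT1G20390 in apc8-1 (11.2 and 10.1), and AT3G15310 is lowest in nrpe1-12 (0.136 and 0.163).

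The comparison of apc8-1 with Col-0 asks the same of a mutation in the anaphase promoting complex. Here 3 of the 33 tested members rose and 0 fell (9.09% called), against 30.2% of all tested loci, 14.1% higher and 16.1% lower. At an unadjusted p under 0.05 by limma, 6 were higher and 2 lower, and of all 17802 tested loci 3555 were higher and 3758 lower. The median log2 fold change was 0.02 for the members and 0.01 for all tested loci. With organelle and ribosomal RNA loci left out and libraries rescaled, 2 members were higher (AT1G20390 and AT2G26630) and 2 lower (SADHU5-1 and AT5G20880). Near centromeres 10 of 56 tested TE genes rose and 1 fell. The 3 were AT1G20390, AT2G26630 and AT3G21010, which is described above.

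AT1G20390 (chromosome 1, 7065494 to 7071561, plus strand), a gene of 6068 bases, had 4.83 and 5.41 FPKM for Col-0, 11.2 and 10.1 for apc8-1 and 4.85 and 4.49 for nrpe1-12. Both apc8-1 libraries stood above the other 4, and the Col-0 and nrpe1-12 libraries overlapped. The estimated fragments were 541 and 456 for Col-0, 1046 and 971 for apc8-1 and 475 and 367 for nrpe1-12. Its mean rose from 5.12 ± 0.408 in Col-0 to 10.67 ± 0.766 in apc8-1 (SD, n = 2; log2 fold change 0.93, SE 0.11, adjusted p = 0.000565 by limma), and the call was kept under all 13 alternatives (log2 fold change 0.85 to 1.05). AT2G26630 (chromosome 2, 11327493 to 11328727) had 0.721 and 0 FPKM for Col-0, 1.43 and 1.41 for apc8-1 and 0.0911 and 0.110 for nrpe1-12, or 9 and 0, 15 and 15, and 1 and 1 fragments. The 2 Col-0 libraries disagreed, and both apc8-1 libraries stood above all others. Its log2 fold change in apc8-1 was 0.89 (SE 0.26, adjusted p = 0.0334 by limma). AT2G26630 passed the filter through apc8-1 alone, which favours an increase there, and with no filter the call was lost (adjusted p = 0.188). It was also lost without Col-0 replicate 2, the library at 0 (log2 fold change 0.49, adjusted p = 0.183), without nrpe1-12 library b (adjusted p = 0.0501) and with a pseudocount of 0.1 (adjusted p = 0.0911), and without either apc8-1 library the gene fell under the filter.

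The direct comparison of apc8-1 with nrpe1-12 asked where the mutants differ from each other. In it 3 of the 33 tested members were higher in apc8-1 and 2 lower (15.2% called, against 18.7% of all tested loci, 7.26% higher and 11.4% lower), with a median log2 difference of -0.03 against 0.00. At an unadjusted p under 0.05 by limma, 3 members were higher and 5 lower, and of all 17802 tested loci 2454 were higher and 3123 lower. AT1G20390 was higher in apc8-1 by 1.04 (SE 0.11, adjusted p = 0.0006 by limma), AT2G26630 by 1.14 (SE 0.26, adjusted p = 0.0186) and AT3G15310 by 0.79 (SE 0.19, adjusted p = 0.0221). AT4G01975 was lower in apc8-1 with a log2 difference of -1.07 (SE 0.17, adjusted p = 0.00385), and SADHU6-1 with one of -0.71 (SE 0.17, adjusted p = 0.0257). The fragments of SADHU6-1 (chromosome 3, 525370 to 526255) were 22 and 26 for Col-0, 16 and 16 for apc8-1 and 36 and 27 for nrpe1-12. Its Col-0 libraries lay between those of the mutants, and it was called in neither comparison with Col-0 (adjusted p = 0.161 and 0.183). The calls of SADHU6-1 and AT3G15310 were lost without apc8-1 replicate 2 (adjusted p = 0.0862 and 0.0663), nrpe1-12 library a (0.118 and 0.0866) or library b (0.0848 and 0.0833), that of SADHU6-1 also without apc8-1 replicate 1 (0.0809), and that of AT2G26630 without nrpe1-12 library a or b (0.0784 and 0.0796). AT3G15310 fell under the filter without Col-0 replicate 2 or apc8-1 replicate 1, AT2G26630 without either apc8-1 library, and AT4G01975 without either nrpe1-12 library. In the fit of all 32594 loci with no filter, AT1G20390, AT4G01975 and AT3G21010 kept their calls in every comparison where they had one. The calls of the other 5 were lost there, with an adjusted p of 0.054 (nrpe1-12 against Col-0) and 0.09 (direct) for AT3G15310, 0.103 for SADHU5-1, 0.165 for SADHU6-1, 0.173 for AT1G73445, and 0.188 (apc8-1 against Col-0) and 0.162 (direct) for AT2G26630, all by limma. The increase of AT3G21010 in apc8-1 was also lost with organelle and ribosomal RNA loci left out (adjusted p = 0.058) and in the 4 libraries of Col-0 and apc8-1 alone (0.0538 without and 0.0762 with the replicate block), and the direct difference of AT2G26630 with a pseudocount of 0.1 (0.0687).

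**Figure D4:**
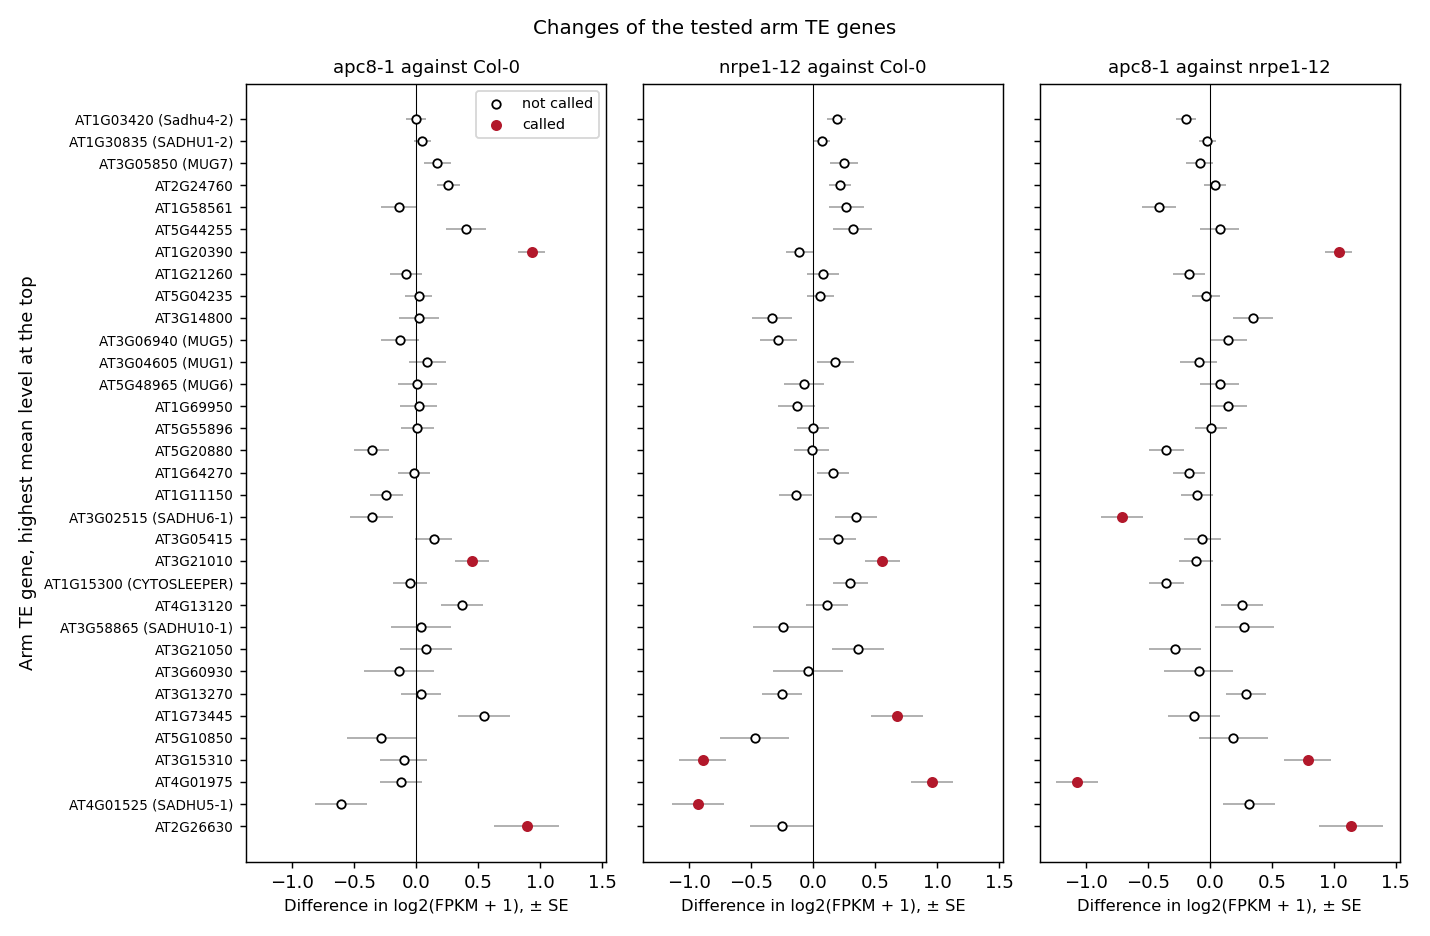
Differences in log2(FPKM + 1) with their SE (x axes) for the 33 tested arm TE genes (y axis, highest mean level at the top) in 3 comparisons; filled red points were called at an adjusted p below 0.05 by limma and open points were not. The 2 most abundant genes, Sadhu4-2 and SADHU1-2, lie near 0, and the called genes other than AT1G20390 are in the lower part of the range.

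Among the nearest loci on either side of the 8 called members, AT3G15300 and KCS11 were called in some comparison. AT1G20390 lies 315 bases from AT1G20380, a prolyl oligopeptidase gene, whose log2 fold change in apc8-1 was 0.03 (adjusted p = 0.939), and 630 bases from AT1G20400, which stayed at or under 0.110 FPKM. AT4G01975 lies 1627 bases from STS, a stachyose synthase gene, at or under 0.159 FPKM in all libraries. AT3G15310 has to its left, at 3793 bases, the VQ motif gene AT3G15300, which fell in nrpe1-12 by 0.93 and in apc8-1 by 0.91 (adjusted p = 0.00587 and 0.00546 by limma). AT2G26630 lies 1142 bases from KCS11, a 3-ketoacyl-CoA synthase gene, which had 11.2 and 12.4 FPKM for Col-0, 12.4 and 12.8 for apc8-1 and 8.88 and 8.97 for nrpe1-12. KCS11 fell in nrpe1-12 against Col-0 (log2 fold change -0.37, adjusted p = 0.0179) and was higher in apc8-1 than in nrpe1-12 (0.46, adjusted p = 0.0101). The neighbours of SADHU6-1, namely GRF7 and the RCC1 family gene AT3G02510, were called in no comparison. Those of SADHU5-1, NAC067 and the TE gene AT4G01530, were listed at 0 in all 6 libraries.

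The 507 members below the filter were also fitted, together with all 32594 loci. Without the filter 9 of the 540 members were called in apc8-1 against Col-0, 12 in nrpe1-12 against Col-0 and 10 in the direct comparison, where 10.1%, 7.94% and 4.49% of all loci were called. In apc8-1 against Col-0 5 members were higher and 4 lower (4.33% and 5.73% of all loci). In nrpe1-12 against Col-0 8 were higher and 4 lower (4.12% and 3.82% of all loci), and in the direct comparison 4 were higher and 6 lower (1.65% and 2.83%). Of the 9, 12 and 10 calls, 6, 8 and 5 were smaller than 0.2 on the log2 scale. AT4G02312, for example, was called in nrpe1-12 on an estimated 1 fragment in each of its libraries and 0 in the others, so these small changes are not described. AT4G10580 (chromosome 4, 6531382 to 6535751), chosen here after its values were seen, had 0.101 and 0.1004 FPKM for Col-0, 0 and 0.103 for apc8-1 and 0.806 and 0.621 for nrpe1-12, an estimated 8 and 6, 0 and 7, and 56 and 36 fragments. Both nrpe1-12 libraries stood above the other 4 (log2 fold change 0.64 against Col-0, adjusted p = 0.0322 by limma in the fit without the filter). It lies inside a merged locus of AT4G10570 and AT4G10590 on the same strand, which had 15.1 to 17.1 FPKM and was called in no comparison. AT1G65485, also chosen after its values were seen, had an estimated 2 and 1 fragments for Col-0, 0 and 0 for apc8-1 and 2 and 2 for nrpe1-12. In the fit without the filter it was called lower in apc8-1 against Col-0 (log2 fold change -0.35, adjusted p = 0.0442 by limma) and against nrpe1-12 (-0.50, adjusted p = 0.036). The p-values of that fit do not carry the counting error of so few fragments. AT1G48250, with 1 fragment in each apc8-1 library and 0 in Col-0, had an SE of 0.0 and an adjusted p of 0.000146 there (limma). No change is read from AT1G65485.

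A few of the 540 members were detected in both libraries of 1 genotype and listed at 0 in the other 4: 4 members for Col-0, 5 for apc8-1 and 7 for nrpe1-12. Of all 32594 loci 128, 120 and 82 had this pattern, a smaller share than among the members in each genotype. Of the 3310 TE genes near centromeres 7, 61 and 24 had it. All 16 arm members had an estimated 1 to 4 fragments per library, and no change is read from them. The reverse pattern, 0 in both libraries of 1 genotype and above 0 in the other 4, was found for 2 of the 540 members for Col-0, 1 for apc8-1 and 3 for nrpe1-12. It was found for 62, 90 and 53 of all 32594 loci and for 16, 3 and 3 of the 3310 TE genes near centromeres. AT3G62725, at 0 in nrpe1-12, had the most fragments of the arm members with the reverse pattern, with an estimated 6 and 8 fragments in Col-0 and 4 and 2 in apc8-1. The highest value of any untested member was 5.99 FPKM for AT4G11945, a gene of 201 bases, in Col-0 replicate 2, and it was listed at 0 in the other 5 libraries.

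The members next to the boundaries of the centromere regions were nearly silent on both sides. Of the 10 nearest on the arm side 2 were listed at 0 throughout, and the highest value was 0.342 FPKM, of AT1G31570 in nrpe1-12 library b. Of the 10 nearest on the other side 4 were at 0 throughout, and the highest value was 0.0855 FPKM. The remaining arm-side neighbours with transcript (AT1G48250, AT2G03100, AT2G16610, AT3G27327, AT4G03310, AT4G10460 and AT5G25615) had at most 0.0745 FPKM. With the boundaries moved outward by 1 Mb, 421 members and 30 of the tested ones remained. The 3 tested members that then fell on the centromere side were SADHU1-2, SADHU5-1 and AT4G01975.

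The genes that silence transposable elements were measured in the same fit. Of 20 RdDM genes 19 were tested: 3 rose and 0 fell in apc8-1 (5 and 0 at an unadjusted p under 0.05, limma), and 3 rose and 1 fell in nrpe1-12 (3 and 4 unadjusted). Of 12 genes of methylation maintenance and other silencing 10 were tested: 3 rose and 0 fell in apc8-1 (5 and 0 unadjusted), and 1 rose and 0 fell in nrpe1-12 (2 and 0 unadjusted). Over all tested loci 14.1% were called higher and 16.1% lower in apc8-1, and 13.5% higher and 12.8% lower in nrpe1-12. NRPE1 itself had 2.71 and 2.91 FPKM for Col-0, 3.04 and 3.29 for apc8-1 and 6.46 and 5.94 for nrpe1-12, and since the lesion is not given its level does not check the label. The genes called in nrpe1-12 besides NRPE1 were MORC6, an ATPase of RdDM silencing (log2 fold change 0.67, adjusted p = 0.00956 by limma), the SRA domain genes SUVH9 (0.33, adjusted p = 0.0244) and SUVH6 (0.32, adjusted p = 0.0338), and CLSY1, a remodeller that acts with RNA polymerase IV, which fell (-0.40, adjusted p = 0.0483). Those called in apc8-1 were MORC6 (0.52, adjusted p = 0.026), RDM1 (0.48, adjusted p = 0.0399), DRM2 (0.38, adjusted p = 0.0362), VIM1 (0.53, adjusted p = 0.00317), SUVH4 (0.44, adjusted p = 0.0473) and MET1 (0.40, adjusted p = 0.0191).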

How the data were processed

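Total RNA from which ribosomal RNA had been removed was sequenced in 6 libraries. Per the submitters' processing notes, the authors used TAIR10, TopHat2 2.0.13, Cufflinks 2.2.1 and Cuffnorm 2.2.1; the deposited FPKM values are theirs, 1 column per library. Both nrpe1-12 columns carry the same name and are called library a and b. Members and lists were chosen with earlier results of these data known.

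FPKM values were transformed to log2(FPKM + 1) with a pseudocount of 1. The 17802 loci that reached 1 FPKM in 2 or more libraries were fitted with limma 3.58.1 in R 4.3.3 (lmFit, eBayes with trend; 3 residual and 4.93 prior degrees of freedom) in 1 fit of all 6 libraries, and called at a Benjamini-Hochberg adjusted p below 0.05 over all loci tested. The procedure was tested on simulated data. The size of 1 fragment was estimated per library from loci of 1 exon longer than 1500 bases, where 99.5 to 100.0% of values up to 4 fragments lay within 0.15 of a whole number after subtracting 230 bases from the length. Among members, all 585 values below 6 fragments did. Estimates use the annotated length and are approximate where the assembled locus is longer (AT4G01975, AT3G21010). Depth as total fragments is not given, and estimates cover counting error only.

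Named genes were all called members, the 10 with the highest mean level, the largest uncalled change per comparison and those next to a boundary. The annotation held no family words, so members were grouped by symbol. RefSeq (TAIR10.1) matched 540 of 540 members and was used for names only. The alternatives were a pseudocount of 0.1, no filter, a filter of 5 FPKM, median-of-ratios scaling, organelle and ribosomal RNA loci left out, moved boundaries, leaving out each library, and the Col-0 and apc8-1 libraries alone with and without a replicate block; leaving out members that share an interval was chosen after seeing the data. MORC1 and MORC2 of the silencing list were not analysed here.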

Additional observations from a re-analysis of the deposited data

How the results depend on the processing

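The 8 called members, in the comparisons that called them, and the largest uncalled change of each comparison kept their direction under every alternative that gave them a value. Where a gene fell under the filter there was none, and other named changes were not recomputed. Several alternatives cannot alter the log2 fold change of a gene. These are the changes of filter, the Col-0 and apc8-1 libraries alone, the replicate block and leaving out a library of the genotype not compared. Direction could change only with the pseudocount, the scaling, the loci left out or a library of the compared genotypes. In apc8-1 against Col-0 the count of members called was 3 higher and 0 lower; it was 5 and 4 with no filter, 1 and 0 with a filter of 5 FPKM, 2 and 2 with organelle and ribosomal RNA loci left out (SADHU5-1 and AT5G20880 lower), and 1 to 2 higher and 0 to 1 lower over the fits that leave out a library. The replicate numbers of Col-0 and apc8-1 share only a number (correlation -0.059 of the deviations over 17802 loci); with the replicate block 3 were higher (AT1G20390, AT2G26630 and AT5G44255) and 1 lower (SADHU5-1), against 2 and 0 in the same 4 libraries with no block. In nrpe1-12 against Col-0 the count was 3 higher and 2 lower; it was 8 and 4 with no filter, 0 and 0 with a filter of 5 FPKM, and 0 to 3 and 0 to 2 over the fits that leave out a library, and 1 was lower with moved boundaries. With members that share an interval left out, 1 was higher in nrpe1-12 against Col-0 and 1 lower in the direct comparison. In the direct comparison the count was 3 and 2; it was 4 and 6 with no filter, 1 and 0 with a filter of 5 FPKM, and 1 to 3 and 0 to 3 over the fits that leave out a library, and 1 was lower with moved boundaries. The filter of 5 FPKM tests fewer members, and that is why it calls fewer; the cause of the other shifts was not tested. With organelle and ribosomal RNA loci left out the median of all tested loci moved from -0.01 to -0.12 in nrpe1-12 against Col-0. In apc8-1 against Col-0 it moved from 0.008 to -0.071, and there SADHU5-1 and AT5G20880 were then called lower and AT3G21010 was no longer called. The part of this move in those calls was not tested. Depth limits all members near 1 FPKM, which rest on few fragments.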
